A study of Mus musculus with 14 samples.

Results

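The 10 genes examined were the AP-1 subunits Fos, Fosb, Fosl1, Fosl2, Jun, Junb and Jund, and the stress and growth factor responsive regulators Atf3, Egr1 and Nr4a1. All 10 are among the 21883 protein-coding genes of the annotation, and they were chosen by name as immediate early transcription factors. For each gene, the listed regions that overlap the gene body or 10000 bp either side of it were taken, on the mouse build mm10. This gave 95 regions of the 1186054 in the 3 deposited tables, with 53 for G9a, 5 for H3K9me2 and 37 for H3K27me3.

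The study immunoprecipitated chromatin of cardiomyocyte-enriched cells from C57BL/6J mice, 1 week after transverse aortic constriction (TAC), in which the aorta is narrowed so that the left ventricle pumps against a raised pressure, and after a sham operation. Each condition had 2 biological replicates per antibody and 1 input library, 14 libraries in all, and neither age nor sex of the mice is given in the labels. The antibodies recognised G9a (encoded by Ehmt2), an enzyme that places the repressive mark H3K9me2, H3K9me2 itself, and H3K27me3, the repressive mark of Polycomb complexes. The comparison asks at which loci G9a and the 2 marks change after pressure load. The cells were enriched, not pure, and in such bulk chromatin a change in the share of a cell type and a change within its cells cannot be told apart.

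The authors' deposited table for each antibody lists only regions that differ between 2 pairs of libraries, each with 4 whole numbers and a −log10 p, where a p of 0.01 or less had been kept. The tables do not say which pair is TAC and which is sham, so differences are given as second pair over first pair, and no direction is assigned to pressure load. The 4 values are the authors', their scaling is not stated, and the sequencing depth of the libraries is unknown. A log2 difference is that of the 2 pair means after adding 1, which understates the change of low regions. A region is called separated where the lower value of one pair is above the higher value of the other.

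Immediate early genes are switched on within minutes of a stimulus without new protein synthesis, and their products then act on later genes. Fos and Jun family proteins pair through leucine zippers into AP-1, which binds DNA and is turned over quickly. Fos, Jun and Egr1 are known to be induced early and briefly in heart muscle under mechanical or pressure load. G9a and H3K9me2, and separately H3K27me3, are associated with genes held silent.

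Elements close to the start of such genes are a known route of kinase signals, so the 250 bases before the start are shown for 4 members from the main families. They come from RefSeq on GRCm38.p6, 5′ to 3′ on the strand of the gene, from chr12:85473640-85473889 (plus strand) for Fos, chr4:95052223-95052472 (minus) for Jun, chr1:191183334-191183583 (minus) for Atf3 and chr15:101266596-101266845 (plus) for Nr4a1. Capitals mark the short core of the cyclic AMP response element, TGACG or its reverse complement CGTCA.
Fos: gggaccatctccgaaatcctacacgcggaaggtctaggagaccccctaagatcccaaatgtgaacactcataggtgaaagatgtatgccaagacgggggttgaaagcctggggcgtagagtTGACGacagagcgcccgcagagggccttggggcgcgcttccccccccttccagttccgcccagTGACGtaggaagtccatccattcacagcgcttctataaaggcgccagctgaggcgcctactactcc
Jun: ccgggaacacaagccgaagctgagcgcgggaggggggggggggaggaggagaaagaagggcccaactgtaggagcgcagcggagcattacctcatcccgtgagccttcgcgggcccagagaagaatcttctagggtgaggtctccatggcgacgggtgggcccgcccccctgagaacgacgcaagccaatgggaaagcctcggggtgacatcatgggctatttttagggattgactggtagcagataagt
Atf3: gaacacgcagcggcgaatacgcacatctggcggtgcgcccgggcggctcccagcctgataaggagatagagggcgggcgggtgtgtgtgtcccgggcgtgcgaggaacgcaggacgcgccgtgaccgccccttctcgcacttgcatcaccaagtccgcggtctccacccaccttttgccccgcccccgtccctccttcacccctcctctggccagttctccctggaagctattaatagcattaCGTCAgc
Nr4a1: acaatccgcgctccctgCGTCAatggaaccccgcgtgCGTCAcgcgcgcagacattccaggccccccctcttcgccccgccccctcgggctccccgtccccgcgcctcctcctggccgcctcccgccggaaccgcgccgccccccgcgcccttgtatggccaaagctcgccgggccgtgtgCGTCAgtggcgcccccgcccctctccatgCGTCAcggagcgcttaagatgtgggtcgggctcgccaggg
A promoter, taken as 300 bases from 250 before to 50 after the start, was on hand for 8 of the 10 genes, Fosl1 and Egr1 being the others. Searched on both strands, the core stood in 5 of the 8 (Fos, Fosb, Junb, Atf3 and Nr4a1), against 23.6% of all 21237 such promoters. It occurred 4 times at Nr4a1, 2 times at Fos and once each at Fosb, Junb and Atf3, and these letters were not in the Jun window. The full element TGACGTCA, in which both orientations overlap, was in 0 of the 8 and in 2.24% of all promoters. The AP-1 site TGACTCA or TGAGTCA was in 0 of the 8 (4.66% of all). The CArG box bound by serum response factor, searched strictly as CCWWWWWWGG (W being A or T), was in 0 of the 8 (1.53% of all). These matches are letters in a window and do not show binding. The lack of a match does not show that a gene lacks the element, which may differ in letters or lie outside the window. Fosl1 and Egr1 were not searched.

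None of these promoters was itself overlapped by a listed region. For the 8 members the count was 0 in each table, whereas 19.8% of all promoters were overlapped in the G9a table, 5.25% in the H3K9me2 table and 28.5% in the H3K27me3 table. The nearest G9a region lay between 1562 bp (Jund) and 5979 bp (Jun) from the start, with a median of 2720 bp for the 8 members against 1948 bp for all promoters. A G9a region within 2500 bp was listed for 3 of the 8, namely Fosb, Junb and Jund, against 55.9% of all promoters. H3K9me2 was farther away, with a median distance of 26869 bp for the 8 members against 8277 bp for all, and 0 of the 8 within 2500 bp against 21.8% of all. H3K27me3 came within 2500 bp of 1 of the 8, Atf3 at 868 bp, against 48.5% of all promoters. Fosl1 and Egr1, without a promoter here, are outside these counts, and both had H3K27me3 regions that overlapped the gene body. Because the tables list only regions that differ between the pairs, the absence of a region does not show the absence of G9a or of a mark.

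**Figure D1:**
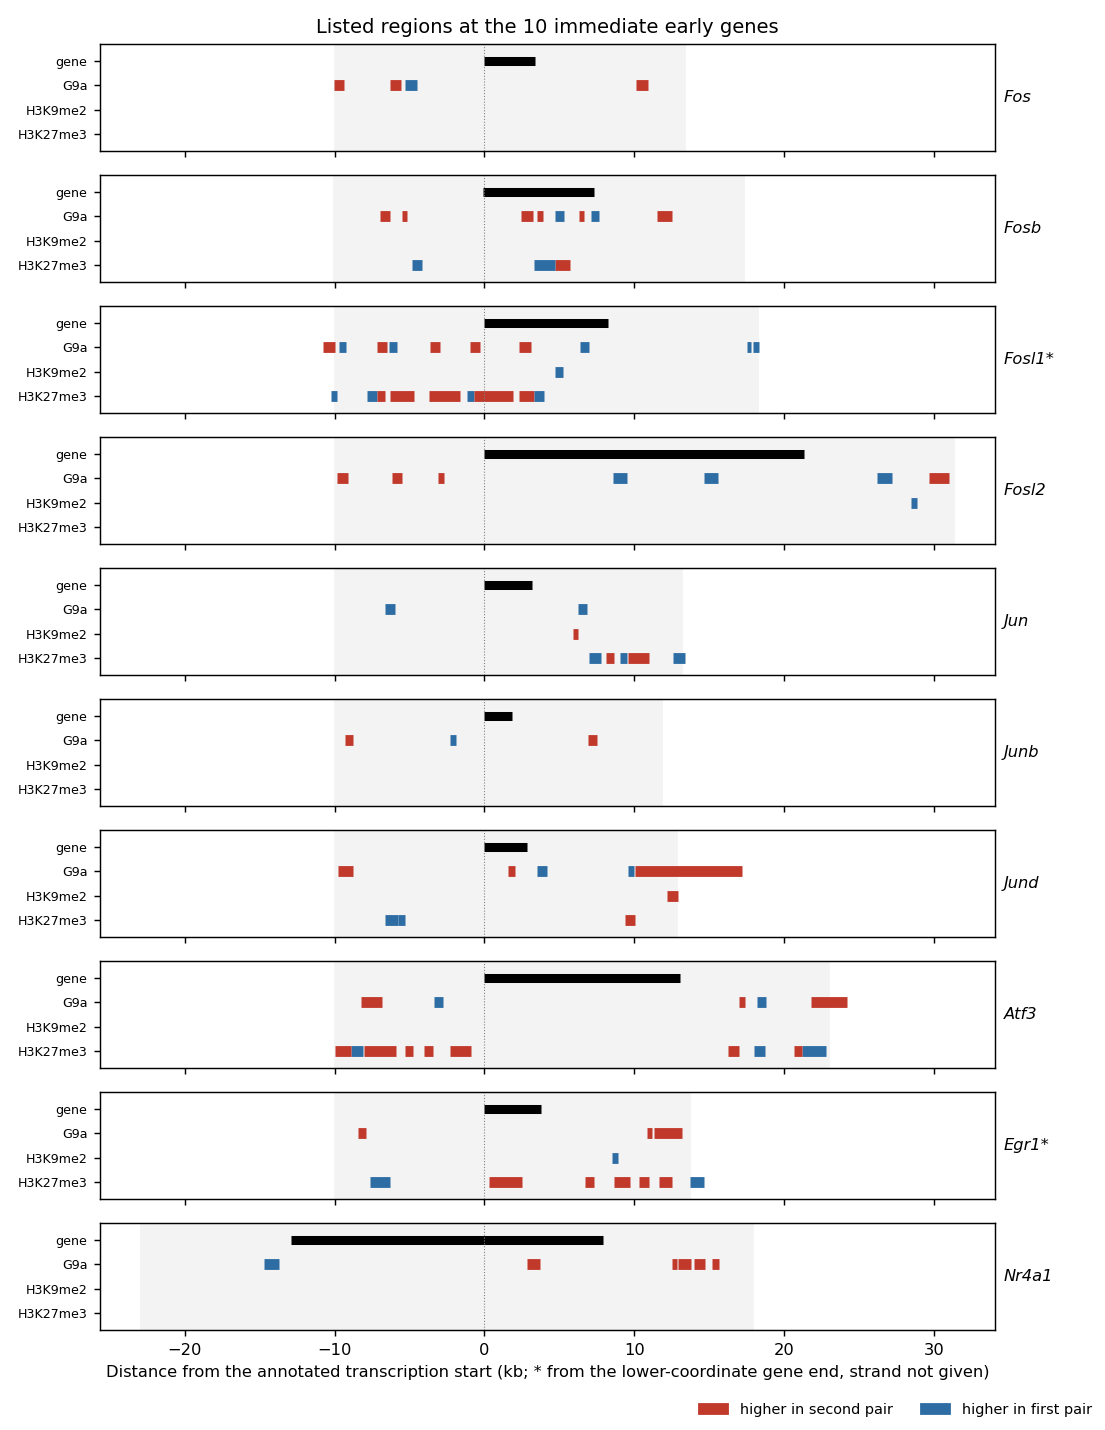
Position of every listed region at the 10 genes, 1 panel per gene, with the gene body in black and rows for G9a, H3K9me2 and H3K27me3. The horizontal axis is the distance in kb from the annotated start (for Fosl1 and Egr1 from the lower-coordinate end of the gene), red regions were higher in the second pair and blue ones in the first pair, and shading shows the window of 10000 bp either side of the gene body. All 10 genes have G9a regions, whereas H3K27me3 regions stand at 6 genes and H3K9me2 regions at 5.

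Across the 10 genes, G9a regions were listed at all 10, H3K27me3 regions at 6 and H3K9me2 regions at 5. For G9a, 9 genes had a region higher in the second pair and 9 had one higher in the first pair, against 73.2% and 89.1% of all protein-coding genes, and the share with a region in either direction was 92.3% over all genes. Jun had only first-pair G9a regions and Egr1 only second-pair ones, and the other 8 had both, against 70.0% of all genes. For H3K27me3, the same 6 genes (Fosb, Fosl1, Jun, Jund, Atf3 and Egr1) had regions in both directions, where the shares over all genes were 69.8% for the second pair, 79.9% for the first pair, 84.7% for either and 65.0% for both. Fos, Fosl2, Junb and Nr4a1 had no H3K27me3 region. For H3K9me2, 2 genes had a second-pair region (Jun and Jund) and 3 a first-pair region (Fosl1, Fosl2 and Egr1), against 52.0% and 64.7% of all genes, and 5 had either, against 73.7%. No member had H3K9me2 regions in both directions, against 43.0% of all genes. Since most members are short, the shares were also taken over the 12240 genes no longer than Fosl2, the longest member at 21369 bp, and there 89.7% had a G9a region (68.4% second pair, 84.8% first pair, 63.4% both), and 82.4% an H3K27me3 region (66.9%, 76.3% and 60.8%). For H3K9me2 the shares over these shorter genes were 64.4% in either direction, 41.3% for the second pair, 53.8% for the first pair and 30.8% for both. The members' G9a count in either direction and their H3K27me3 count in both directions are near these backgrounds. Their H3K9me2 counts and their H3K27me3 count in either direction are lower, by few genes (5 of 10 against 64.4%, and 6 of 10 against 82.4%, in either direction). All members but Fosl2, Nr4a1 and Atf3 are 8241 bp or shorter, so these backgrounds are not matched to them in length. With 10 genes, no test of these differences was made.

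**Figure D2:**
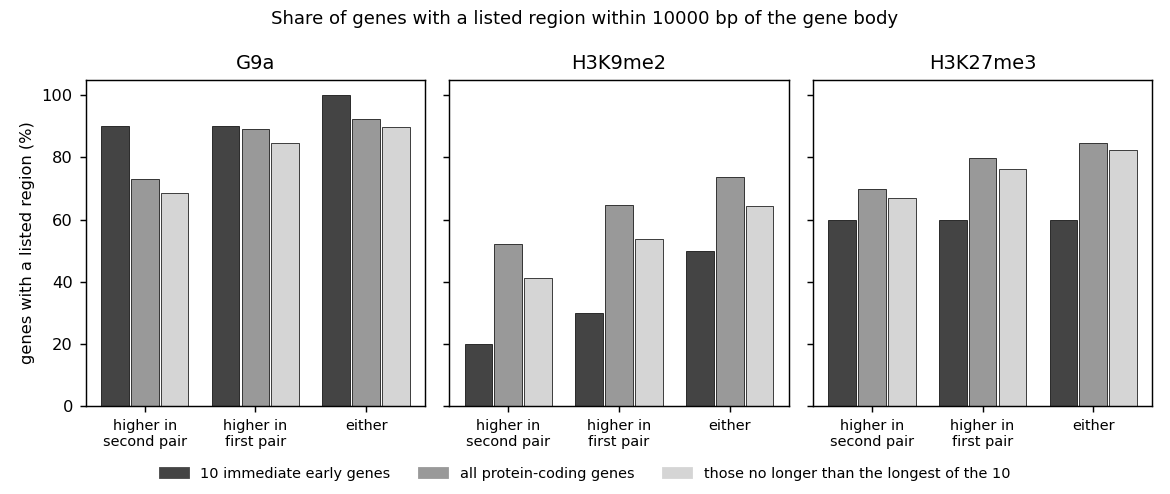
Percentage of genes with a listed region within 10000 bp of the gene body, for the 10 immediate early genes (dark bars), all protein-coding genes (mid grey) and genes no longer than the longest of the 10 (light grey). For H3K9me2 in either direction, 5 of the 10 genes had a region, against 73.7% of all genes and 64.4% of the shorter ones.

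Most G9a regions of the members were higher in the second pair. Of the 53 regions, 34 (64.2%) were higher in the second pair and 19 in the first pair, whereas among all listed G9a regions 44.5% were higher in the second pair and 55.5% in the first pair. The median log2 difference was 0.79 at the members and −0.67 over all G9a regions. The sign of such a median only follows the direction that has more regions. Within the second-pair regions the median was 1.098 at the members and 1.011 over all. Within the first-pair regions it was −0.975 and −1.084. The balance depended on the window. In the gene bodies alone, 6 regions were higher in the second pair and 5 in the first pair, with a median of 1.12, and with 2500 bp either side 7 were higher in the second pair and 8 in the first pair, with a median of −0.66. The pairs were separated in 30 of the 53 regions (56.6%), against 61.3% of all G9a regions. By direction, 20 of the 34 second-pair regions and 10 of the 19 first-pair regions were separated, against 63.1% and 59.8% of all. Values were mostly low, with a median of 132 per kb at the members and 131 per kb over all regions.

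Most H3K27me3 regions of the members were also higher in the second pair, by count. At the members, 21 of 37 (56.8%) were higher in the second pair, against 42.7% of all H3K27me3 regions. The median log2 difference was 0.65 at the members and −0.58 over all regions, and its sign again follows the more frequent direction. Within the second-pair regions the median was 0.784 at the members and 0.836 over all. Within the first-pair regions it was −0.669 and −0.984. The pairs were separated in 27 of the 37 regions (73%), against 69.2% of all. By direction, 17 of the 21 second-pair regions and 10 of the 16 first-pair regions were separated, against 71.4% and 67.6% of all. Of the 5 H3K9me2 regions, 2 were higher in the second pair and 3 in the first pair, against 44.4% and 55.6% of all H3K9me2 regions. The 3 first-pair regions were separated and the 2 second-pair regions were not, where 67.9% of all H3K9me2 regions were separated. Of 43 steps between consecutive G9a regions at the members, 22 changed direction, against 39.2% of all consecutive steps in the G9a table. Of 31 such H3K27me3 steps 17 did, against 44.4% of all. The 6 H3K27me3 steps of the members between touching regions all changed direction. So did 100% of touching steps in each whole table, so this is not particular to the members.

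**Figure D3:**
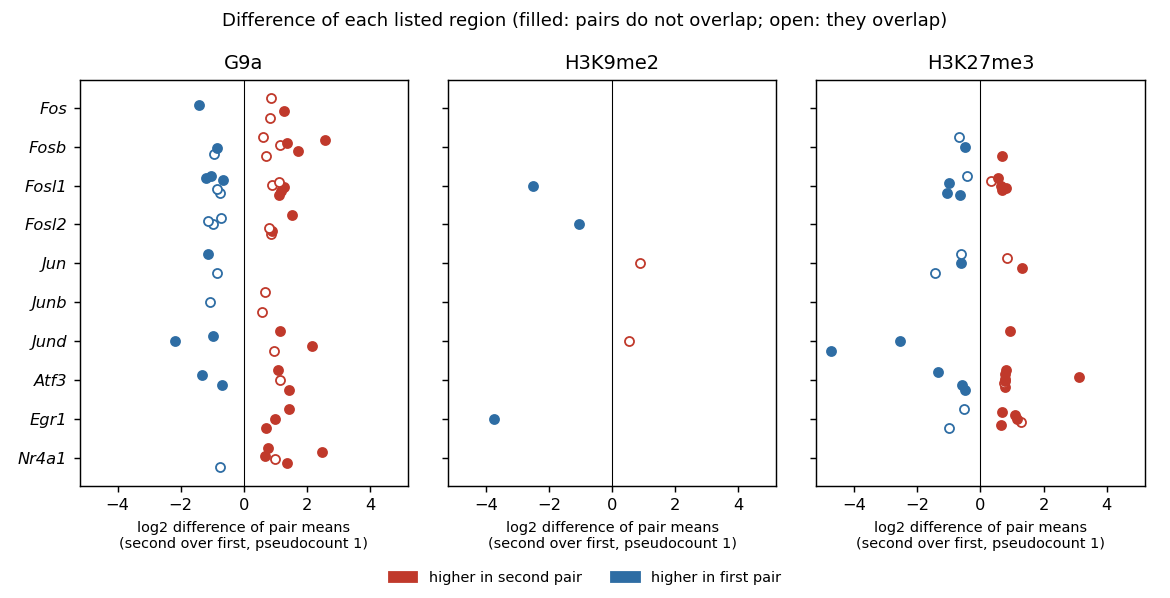
Log2 difference of the pair means (second over first, after adding 1) of each of the 95 regions, by gene and antibody. Red points are regions higher in the second pair, blue ones are higher in the first pair, and filled points have pairs that do not overlap. At the members, the lowest difference was −4.75, for H3K27me3 near Jund, and the highest 3.13, for H3K27me3 near Atf3.

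A fit of all regions of each table by limma gave a second look at the spread between the libraries. At an adjusted p of 0.05 it called 0 regions in each table (0.00% of each), and 0 at the members. The smallest adjusted p was 0.461 for G9a, 0.191 for H3K9me2 and 0.106 for H3K27me3. At an unadjusted p under 0.05 it gave 2 of the 53 G9a regions (3.94% of all), 2 of the 5 H3K9me2 regions (8.75% of all) and 5 of the 37 H3K27me3 regions (12.3% of all). All these regions had been selected by the authors for a difference, and for one region alone the smallest two-sided p of an exact permutation test, with 2 libraries per pair, is 0.333. So the differences below are those the authors' deposited tables list, and none passed the test over replicates.

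Library 1 of the second pair stands apart in the G9a table, and this touches the first-pair regions. Over the whole table it was at 0 in 9.34% of regions, against 0.545% for library 2 of the second pair and 1.4% and 0.163% for the libraries of the first pair. In the 19 first-pair regions of the members its median was 27, with 76 for library 2 of the second pair, against 91 and 109 in the first pair. It was the lowest of the 4 libraries in 16 of these 19 (84.2%), and in 78.6% of all first-pair regions. Library 2 of the second pair lay below both first-pair libraries in 11 of the 19 (57.9%, against 64.6% of all first-pair regions) and within their range in 8. In the 34 second-pair regions the medians were 132.5 and 123 in the second pair against 46.5 and 72 in the first pair. Without library 1 of the second pair, 1 of the 19 first-pair regions turned direction (5.26%, against 9.5% of all), and a region of Fosb fell to 0.00. Without library 2 of the second pair, 6 of the 34 second-pair regions turned (17.6%, against 10.2% of all). Leaving out library 2 of the first pair turned first-pair regions of Fosl1 (0.33), Jun (0.01) and Nr4a1 (0.09). The part of library 1 in each difference was not tested. When each of the 4 libraries was left out in turn, 38 of the 53 G9a regions kept their direction every time (71.7%, against 81.7% of all), as did 4 of the 5 H3K9me2 regions (86.0% of all) and 34 of the 37 H3K27me3 regions (91.9%, against 85.0% of all).

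**Figure D4:**
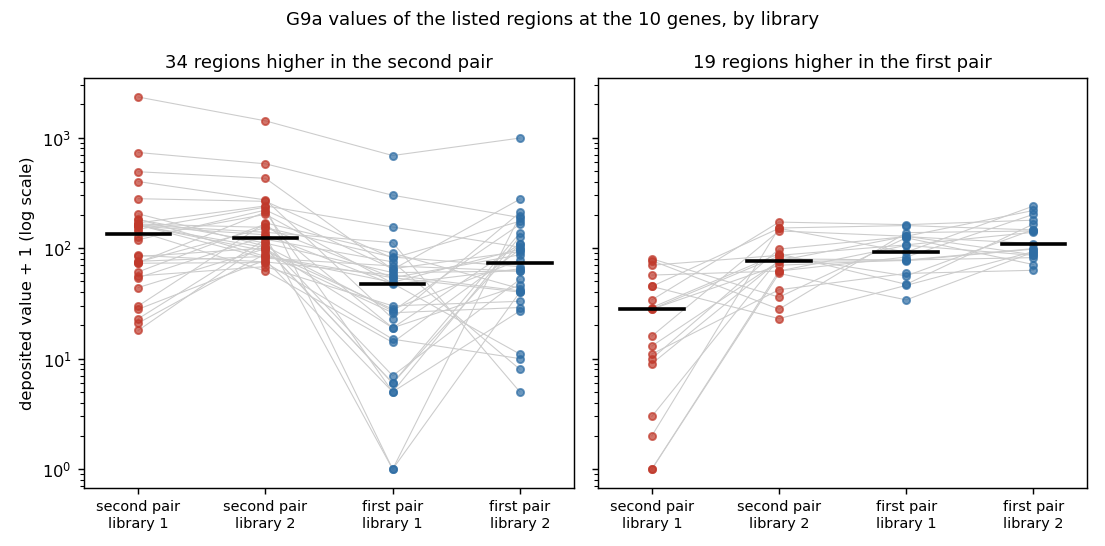
Deposited G9a values plus 1, on a log scale, of the 34 regions higher in the second pair (left) and the 19 higher in the first pair (right). Each point is a region in 1 library, grey lines join the same region, and black bars are medians. In the right panel the median of library 1 of the second pair is 27, below the 76 of library 2 of the second pair and the 91 and 109 of the first pair.

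Fos encodes the founding member of the family that pairs with Jun proteins, and it had G9a regions alone. Its gene body is chr12:85473890-85477274 on the plus strand, with no other protein-coding gene in its window. A separated region 5590 bp upstream (chr12:85467601-85468300) had G9a values of 160 and 93 in the second pair, against 27 and 77 in the first pair, a log2 difference of 1.27 with a −log10 p of 7.20 in the authors' deposited table. That difference was 0.71 without library 1 of the first pair and 2.19 without library 2 of it. The next region toward the gene, 4490 bp upstream (chr12:85468601-85469400), had the reverse order, with 76 and 27 in the second pair against 137 and 142 in the first pair (log2 difference −1.42, and −0.87 without library 2 of the second pair). Both are separated. The outer regions on either side were higher in the second pair but overlapped, with 60 and 164 against 18 and 108 on the upstream side and 159 and 100 against 5 and 136 beyond the gene. Summed over its 4 regions, G9a at Fos had 455 and 384 in the second pair and 187 and 463 in the first pair, so the pairs overlapped. The nearest H3K27me3 region lay 19261 bp downstream of the start and the nearest H3K9me2 region 23540 bp upstream, both outside the window.

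Fosb, whose shorter splice form is known for its long life in neurons, had 8 G9a regions and 3 H3K27me3 regions. It occupies chr7:19302696-19310118 on the minus strand. Its G9a region of smallest deposited p (chr7:19315201-19315550, 5156 bp upstream) had 72 and 73 in the second pair, against 14 and 9 in the first pair. Its log2 difference of 2.56 was the highest of the 53 G9a regions, and its unadjusted limma p was 0.0185. Inside the gene, a region 2445 bp downstream of the start (chr7:19306801-19307600) had 157 and 131 in the second pair against 46 and 64 in the first pair (log2 difference 1.37). Both second-pair regions were separated. At the far end of the gene, the first-pair region chr7:19302401-19302900 had 2 and 79 in the second pair against 77 and 81 in the first pair, and the log2 difference of −0.95 was 0.00 without library 1 of the second pair. H3K27me3 changed direction within the gene body. The region chr7:19304351-19305350 had 369 and 360 in the second pair against 313 and 140 in the first pair (log2 difference 0.68, and 0.22 without library 2 of the first pair). The region that touches it toward the start (chr7:19305351-19306750) had 245 and 293 in the second pair against 449 and 306 in the first pair (−0.49, and −0.19 without library 1 of the first pair).

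Fosl1 encodes FRA-1, a Fos relative without the strong activation domain of Fos, and it was the only member with regions in all 3 tables inside its gene body. The gene lies at chr19:5447698-5455938, and its window also holds Ccdc85b, Fibp and Ctsw. H3K27me3 covered 35.2% of the window in 9 regions, which summed to 3224 and 3599 in the second pair and 2635 and 2854 in the first pair. The region with the highest H3K27me3 values of all members (chr19:5447001-5449600) spans the lower-coordinate end of the gene, with 1212 and 1508 in the second pair against 898 and 1279 in the first pair. These pairs overlapped, at a log2 difference of 0.32, and 0.09 without library 1 of the first pair. The values are totals over its 2600 bp. Per kb its mean was 470.9, below the 496.2 of the shorter region chr19:5450001-5451000 in the gene body. The first-pair H3K27me3 region of smallest p (chr19:5439851-5440550) had 100 and 53 in the second pair against 209 and 115 in the first pair (log2 difference −1.07, and −0.58 without library 1 of the first pair). H3K9me2 within the gene body went the other way from most H3K27me3 there. Its single region (chr19:5452401-5452950) had 32 and 7 in the second pair against 130 and 99 in the first pair, a log2 difference of −2.49 with a −log10 p of 15.8 in the authors' deposited table and an unadjusted limma p of 0.0198. The pairs were separated, and the difference lay between −3.85 and −1.81 when single libraries were left out. G9a had 5 regions in each direction, and their sums overlapped, with 906 and 1026 in the second pair against 571 and 987 in the first pair. The second-pair G9a region of smallest p (chr19:5444051-5444750) had 180 and 110 in the second pair against 59 and 61 in the first pair (1.26), and the 2 outermost first-pair regions lie in Ctsw, a protease gene of cytotoxic lymphocytes.

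Fosl2 encodes FRA-2, and it had 7 G9a regions and 1 H3K9me2 region. It occupies chr5:32136472-32157840 on the plus strand, alone in its window. The largest difference stood beyond the end of the gene (chr5:32166151-32167500), with 399 and 272 in the second pair against 22 and 209 in the first pair, a log2 difference of 1.53 and a −log10 p of 24.0 in the authors' deposited table. The pairs were separated, and the difference was 0.68 without library 1 of the first pair. In all 3 first-pair regions of Fosl2, library 1 of the second pair was the lowest. Within the gene body they had 1 and 151 in the second pair against 159 and 145 in the first pair (chr5:32145051-32146000), and 15 and 142 in the second pair against 127 and 218 in the first pair (chr5:32151151-32152050). Beyond the gene end the third had 33 and 171 in the second pair against 162 and 178 in the first pair (chr5:32162701-32163700). Without that library their log2 differences of −0.99, −1.13 and −0.73 became −0.01, −0.28 and 0.01. The H3K9me2 region (chr5:32164951-32165350) had 57 and 3 in the second pair against 66 and 61 in the first pair (log2 difference −1.06, and −0.15 without library 2 of the second pair).

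Jun, the most potent activator of the Jun proteins, was the one member without a G9a region higher in the second pair. Its gene body is chr4:95049036-95052222 on the minus strand, alone in its window. Upstream, the region chr4:95058201-95058850 had 9 and 97 in the second pair against 126 and 109 in the first pair (log2 difference −1.13, and −0.27 without library 1 of the second pair). Downstream, chr4:95045351-95046000 had 27 and 84 in the second pair against 55 and 146 in the first pair (−0.85, and 0.01 without library 2 of the first pair), and these pairs overlapped. The H3K9me2 region that overlaps the downstream one (chr4:95045951-95046300) was higher in the second pair, with 34 and 77 against 16 and 43 in the first pair (0.89, and 0.20 without library 2 of the second pair). This pair of values also overlapped. The H3K27me3 regions all lay 6972 bp or more downstream of the start and changed direction at each step. The one of smallest p (chr4:95041201-95042650) had 333 and 277 in the second pair against 147 and 96 in the first pair, a log2 difference of 1.32 with a −log10 p of 18.0 in the authors' deposited table and an unadjusted limma p of 0.0461. The outermost (chr4:95038851-95039650) had 91 and 14 in the second pair against 214 and 74 in the first pair (−1.44, and −0.49 without library 1 of the first pair), with overlapping pairs.

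Junb, which can oppose Jun at AP-1 sites, had the least to show, with 3 G9a regions and none in the other tables. The gene lies at chr8:84976909-84978748 on the minus strand, next to Rnaseh2a and Prdx2. A region 1903 bp upstream (chr8:84980651-84981050) had 0 and 58 in the second pair against 33 and 91 in the first pair, and its log2 difference of −1.07 was −0.10 without library 1 of the second pair. A region 8803 bp upstream (chr8:84987551-84988050) had 83 and 99 in the second pair against 5 and 109 in the first pair, and its log2 difference of 0.67 became −0.26 without library 1 of the first pair. The third, in Prdx2, had 29 and 168 in the second pair against 89 and 42 in the first pair, and its difference of 0.58 became −1.15 without library 2 of the second pair. The pairs overlapped in all 3.

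Jund, the Jun protein that resting cells already contain, held the regions of smallest deposited p among the members in the G9a and H3K27me3 tables. The gene lies at chr8:70697739-70700616 on the plus strand, close to Iqcn. Inside the gene, 1562 bp from the start, G9a had 53 and 127 in the second pair against 0 and 39 in the first pair (chr8:70699301-70699750, log2 difference 2.15). Just past the gene, in Iqcn, it had 0 and 61 in the second pair against 82 and 201 in the first pair (chr8:70701251-70701900, log2 difference −2.18). Both regions were separated, in opposite directions, and without any one library they stood at 1.19 or more and at −1.20 or less. Farther into Iqcn, a region of 7150 bp (chr8:70707801-70714950) had 2327 and 1416 in the second pair against 687 and 989 in the first pair, a log2 difference of 1.16 with a −log10 p of 85.7 in the authors' deposited table. It is the longest G9a region of the members, it runs on beyond the window of Jund, and without library 1 of the second pair its difference was 0.76. An H3K9me2 region inside it (chr8:70709901-70710650) had 118 and 147 in the second pair against 28 and 154 in the first pair, with overlapping pairs, and without library 1 of the first pair its log2 difference of 0.54 became −0.22.

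H3K27me3 upstream of Jund differed most of all 95 regions on the log2 scale. At 5789 bp upstream (chr8:70691101-70691950) it had 13 and 0 in the second pair against 138 and 263 in the first pair, a log2 difference of −4.75 with a −log10 p of 49.2 in the authors' deposited table and an unadjusted limma p of 0.00866. The neighbouring region nearer the gene (chr8:70692001-70692450) had 17 and 17 in the second pair against 50 and 161 in the first pair (−2.57, unadjusted limma p 0.0220). Both were separated, and without any one library the first stayed at −3.85 or lower and the second at −1.50 or lower. On the Iqcn side, H3K27me3 at chr8:70707101-70707800 had 100 and 163 in the second pair against 90 and 48 in the first pair (0.92, and 0.53 without library 2 of the second pair), the opposite direction.

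Atf3, a stress-induced factor of the ATF/CREB family that can bind with Jun, had the most H3K27me3 regions, with 7 of 10 higher in the second pair. Its position is chr1:191170296-191183333 on the minus strand, with Fam71a beyond its end. The H3K27me3 region nearest to the start, 868 bp upstream (chr1:191184201-191185650), had 508 and 391 in the second pair against 256 and 269 in the first pair, a log2 difference of 0.77. At 4768 bp upstream (chr1:191188101-191188600), H3K27me3 had 95 and 122 in the second pair against 20 and 3 in the first pair, a log2 difference of 3.13 with a −log10 p of 19.7 in the authors' deposited table and an unadjusted limma p of 0.0114. That difference was 4.78 without library 1 of the first pair and 2.38 without library 2 of it. All 5 second-pair regions on the upstream side were separated. Between the outer ones stood a separated first-pair region (chr1:191191451-191192250), with 75 and 80 in the second pair against 224 and 176 in the first pair (−1.36).

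G9a at Atf3 was highest past the end of the gene. The region chr1:191159151-191161550 had 732 and 578 in the second pair against 300 and 188 in the first pair, a log2 difference of 1.42 with a −log10 p of 41.5 in the authors' deposited table. It overlaps an H3K27me3 region of the opposite direction (chr1:191160551-191162100), with 177 and 208 in the second pair against 284 and 263 in the first pair. Upstream, chr1:191190151-191191550 had 279 and 264 in the second pair against 80 and 174 in the first pair (1.09, and 0.64 without library 1 of the first pair), overlapping an H3K27me3 region that was also higher in the second pair (638 and 506 against 412 and 254, a log2 difference of 0.78, and 0.47 without library 2 of the first pair). It also overlaps the first-pair H3K27me3 region given above. Nearest to the start, 2768 bp upstream, the first-pair region chr1:191186101-191186700 had 8 and 76 in the second pair against 127 and 86 in the first pair (−1.32, and −0.48 without library 1 of the second pair). No G9a or H3K27me3 region lay in the gene body.

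Egr1, a zinc finger factor induced by growth factors and stretch, was the only member whose G9a regions were all higher in the second pair and all separated. The gene lies at chr18:34861207-34864956, alone in its window. The largest region (chr18:34872551-34874400) had 490 and 427 in the second pair against 63 and 276 in the first pair, a log2 difference of 1.43 with a −log10 p of 29.5 in the authors' deposited table, and of 0.73 without library 1 of the first pair. The 2 smaller regions had 85 and 74 against 56 and 40, and 55 and 67 against 29 and 32. Together they gave 222 per kb in the second pair and 91.9 per kb in the first pair. H3K27me3 lay over the gene body, at chr18:34861501-34863700, with 662 and 579 in the second pair against 257 and 531 in the first pair (0.65, separated, and 0.22 without library 1 of the first pair). Where an H3K9me2 region (chr18:34869701-34870150) overlapped an H3K27me3 region (chr18:34869851-34870900), the marks went opposite ways. H3K9me2 had 4 and 9 in the second pair against 29 and 172 in the first pair, a log2 difference of −3.76 with a −log10 p of 20.9 in the authors' deposited table and an unadjusted limma p of 0.0188, and of −2.00 without library 2 of the first pair. H3K27me3 had 206 and 302 in the second pair against 99 and 127 in the first pair (1.16). Both regions were separated.

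Nr4a1, an orphan nuclear receptor also called Nur77, had G9a regions alone, 5 of 6 higher in the second pair. The annotated gene, chr15:101253902-101274795, begins before the start site used here, which lies at 101266846 on the plus strand. Within it, 2855 bp past that start, chr15:101269701-101270550 had 161 and 138 in the second pair against 111 and 4 in the first pair (log2 difference 1.36, and 0.43 without library 2 of the first pair). The other 4 second-pair regions stood between 12555 and 15205 bp from the start, past the gene end. Of these chr15:101280851-101281550 had 124 and 201 in the second pair against 47 and 10 in the first pair, a log2 difference of 2.47 with a −log10 p of 22.3 in the authors' deposited table and an unadjusted limma p of 0.0434. Those pairs were separated, and the difference was 1.77 or more without any one library. The first-pair region (chr15:101252151-101253100) had 44 and 150 in the second pair against 91 and 239 in the first pair, and its log2 difference of −0.76 became 0.09 without library 2 of the first pair.

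The summed G9a values order the members by their log2 difference as Egr1 (1.27), Jund (0.91), Atf3 (0.86), Nr4a1 (0.73), Fosb (0.63), Fos (0.37), Fosl1 (0.31), Junb (0.24), Fosl2 (0.22) and Jun (−1.0). For Egr1, Jund, Atf3, Nr4a1 and Fosb, both sums of the second pair exceeded both of the first pair. For the other 5 the sums of the pairs met or overlapped, so their order carries no separation between the pairs. The Jund sums were 2539 and 1913 against 845 and 1521. Of these, 2327 and 1416 against 687 and 989 came from the 7150 bp region in Iqcn, which runs on beyond the window. The Atf3 sums were 1118 and 1077 against 630 and 578. Of these, 732 and 578 against 300 and 188 came from a region past the gene end that crosses the window edge. Sums without these regions were not taken. Leaving out 1 first-pair library turned the sign for Fos (−0.14), Junb (−0.15) and Fosl1 (−0.03), all without library 1. Leaving out library 2 of the second pair turned Junb (−0.72). Covered length differs, from 1300 bp at Jun to 9700 bp at Jund, and per kb of listed region the members ranged from 83.5 (Jun) to 229 (Jund) in the second pair and from 91.9 (Egr1) to 168 (Jun) in the first pair.

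Some G9a regions at these genes coincided with regions of the histone marks. An H3K27me3 region overlapped 16 of the 53 (30.2%), against 55.7% of all G9a regions, and an H3K9me2 region overlapped 2 of the 53 (3.77%), against 19.8%. Of the 53, 10 overlapped H3K27me3 of the same direction and 10 of the opposite direction, some regions counting in both, against 37.8% and 23.3% of all. Seen from the other side, 18 of the 37 H3K27me3 regions (48.6%) met a G9a region, against 35.5% of all H3K27me3 regions. No test was made of these shares.

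Lists of related genes were read in the same windows. Of 12 partners of AP-1, G9a regions were found at 12, H3K9me2 regions at 6 and H3K27me3 regions at 12, against 92.3%, 73.7% and 84.7% of all genes. Of their 98 G9a regions, 46 were higher in the second pair, against 44.5% of all. The G9a region of smallest deposited p was that of Maff, a small Maf protein, with G9a values of 1710 and 815 in the second pair against 395 and 486 in the first pair. Another G9a region of Maff was higher in the first pair (log2 difference −1.07). Of 22 other immediate early genes, 22 had a G9a region, 13 an H3K9me2 region and 15 an H3K27me3 region. There 66 of 125 G9a regions were higher in the second pair (44.5% of all), and 61 of 98 H3K27me3 regions (42.7% of all), with medians of 0.57 and 0.55 on the log2 scale. A G9a region of Egr3 had 978 and 531 in the second pair against 197 and 241 in the first pair (log2 difference 1.78). A G9a region near Egr2 had 1 and 1 in the second pair, against 241 and 143 in the first pair (−6.59). An H3K27me3 region of Egr4 had 3729 and 2970 in the second pair against 1808 and 1937 in the first pair (0.84). Each of these genes also had a region of the same antibody in the opposite direction (−1.50 at Egr3, 1.26 at Egr2 and −0.43 at Egr4). Egr2, Egr3 and Egr4 encode zinc finger relatives of Egr1.

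Of 13 upstream regulators, kinases and factors that act upstream of these genes, 13 had a G9a region, 9 an H3K9me2 region and 11 an H3K27me3 region. The shares over all genes were 92.3%, 73.7% and 84.7%. There 39 of 117 G9a regions and 36 of 99 H3K27me3 regions were higher in the second pair, against 44.5% and 42.7% of all regions. The medians were −0.80 in both tables, against −0.67 and −0.58 over all regions. A G9a region of Mapk3, which encodes ERK1, had 761 and 527 in the second pair against 194 and 279 in the first pair (log2 difference 1.44). Another was higher in the first pair (−1.35). At Mrtfa, a partner of serum response factor, a G9a region had 5 and 32 in the second pair against 239 and 179 in the first pair (−3.43). Another was higher in the second pair, with overlapping pairs (1.86). Creb1, whose protein binds the cyclic AMP response element, had H3K27me3 values of 11 and 0 in the second pair against 197 and 241 in the first pair (−5.08).

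Markers of the cell types that heart tissue holds were read in the same tables. H3K27me3 regions were listed at 4 of 7 cardiomyocyte markers, 5 of 5 fibroblast, 4 of 4 endothelial, 4 of 4 smooth muscle and pericyte, and 3 of 4 leukocyte markers, and G9a regions at every marker of the 5 lists. Over all genes these shares were 84.7% for H3K27me3 and 92.3% for G9a. H3K9me2 regions were listed, in the same order, at 3 of 7, 5 of 5, 4 of 4, 4 of 4 and 3 of 4, against 73.7% of all genes. The share of G9a regions higher in the second pair was 18 of 48 at cardiomyocyte markers, 39 of 68 at fibroblast, 57 of 95 at endothelial, 45 of 81 at smooth muscle and pericyte, and 35 of 62 at leukocyte markers, against 44.5% of all G9a regions. Tnnt2, cardiac troponin T, had G9a values of 766 and 191 in the second pair against 39 and 77 in the first pair, a log2 difference of 3.02 that was 1.70 without library 1 of the second pair. At Ryr2, the calcium release channel, a first-pair region had G9a values of 0 and 12 in the second pair against 44 and 106 in the first pair (−3.44). A second-pair G9a region of Ryr2, of smaller deposited p, had 14 and 202 against 1 and 36 in the first pair (2.48). Its pairs overlapped. Since the tables hold no expression and only differing regions, they do not check the purity of the cells, and the part of cell composition in the differences at the immediate early genes was not tested.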

How the data were processed

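Chromatin immunoprecipitation of G9a, H3K9me2 and H3K27me3 was sequenced in 12 libraries, and 2 inputs were not used here. The submitters' processing notes name BWA 0.7.10-r789, SAMtools 1.1 and the build mm10 (GRCm38). How regions were called, scaled or corrected for input is not stated in the labels or tables. Each line of the 3 tables that the authors deposited gives a region, other values (4 whole numbers of unstated scaling, which were not taken as raw counts) and a −log10 p. The columns carry no sample names, so the pairs were not tied to TAC or sham, and no SD is given. The limma p-values measure only the spread between these libraries. What spread the deposited p measures is not stated.

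Genes, starts and promoters came from RefSeq on GRCm38.p6, matching mm10. Overlap needed 1 bp. limma 3.58.1 (R 4.3.3) was fitted to log2(value + 1) of all regions of a table without scaling, with Benjamini-Hochberg adjustment, and checked on simulated data. The median limma log2 difference of all regions was −0.73, −0.65 and −0.55 for G9a, H3K9me2 and H3K27me3. After division by library sums it was −0.87, −0.59 and −0.70, and with median-ratio factors −0.63, −0.47 and −0.39. Scaling by library sums kept the number of member regions in each direction.

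Members and gene lists were chosen with earlier results of these data known. Named for each member were the region of smallest deposited p per table and direction, and for each other list up to 4 genes per table. Further regions were singled out after their values were seen.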

Additional observations from a re-analysis of the deposited data

How the results depend on the processing

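For the 10 genes, the region of smallest deposited p per gene, table and direction gave 35 values. These were recomputed under 6 alternatives each, and 206 of the 210 kept their direction. The exceptions were the G9a region of Fosb higher in the first pair (0.00 without library 1 of the second pair), the G9a region of Junb higher in the second pair (−0.26 without library 1 of the first pair, range −0.26 to 3.94 when each library was left out), the G9a region of Nr4a1 higher in the first pair (0.091 without library 2 of the first pair, range −1.88 to 0.091) and the H3K9me2 region of Jund (−0.22 without library 1 of the first pair, range −0.22 to 2.20). The cause was not tested. Regions outside these 35 also turned, such as the G9a region of Junb in Prdx2 (−1.15 without library 2 of the second pair). Another was the first-pair G9a region beyond the end of Fosl2 (0.01 without library 1 of the second pair). Over all 53 G9a regions, 38 kept their direction when each library was left out in turn.

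Narrower windows lowered the counts by construction. With the gene body alone, G9a regions higher in the second pair were at 4 genes and higher in the first pair at 3, with 6 and 5 regions. With 2500 bp either side, 4 genes had a second-pair G9a region, with 7 second-pair and 8 first-pair regions. The median was −0.66 there and 0.79 in the full window, and its sign only follows the direction that has more regions. For H3K9me2, 0 genes and 0 regions were higher in the second pair and 1 gene and 1 region in the first pair under both windows, with a median of −2.49. At a −log10 p of 3 or more, 0 genes and 0 regions had H3K9me2 higher in the second pair, with a median of −2.49, and with separated regions alone, 0 genes did. For H3K27me3, the gene body alone left 3 genes with second-pair and 2 with first-pair regions, and 4 and 2 regions. With 2500 bp either side there were 2 genes with first-pair regions, and 6 second-pair and 3 first-pair regions. A minimum mean of 200 per kb left 9 second-pair and 5 first-pair H3K27me3 regions, and no member region in the other tables.

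Leaving out each library in turn gave 0 to 4 limma calls among the member G9a regions. All 4 (at Fosl2, Fosb, Jund and Junb, adjusted p 0.0249 to 0.0349) were higher in the first pair, and appeared without library 2 of the second pair, where library 1 stood alone with 1, 2, 0 and 0 and was assumed to vary like the others. There 56293 first-pair and 222 second-pair regions were called over the whole table. H3K9me2 regions higher in the second pair ranged from 1 to 2, and the median of all 5 H3K9me2 regions from −3.34 to −0.15. No paired analysis was possible because the deposited columns carry no replicate numbers. With unknown depth and 2 libraries per pair, differences within regions of low values cannot be resolved further.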
